A study of Homo sapiens with 6 samples.

Results

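The genes described here encode the enzymes, receptor and inhibitors that start pericellular plasminogen activation: PLAU (urokinase-type activator), PLAT (tissue-type activator), PLAUR (the urokinase receptor), SERPINE2 (protease nexin-1) and SERPINB2 (plasminogen activator inhibitor 2). They were chosen by gene symbol, and all 5 were found among the 26819 genes of the table. The material is C4-2, a castration-resistant human prostate cancer cell line derived from LNCaP. All 6 libraries come from C4-2 cells carrying Tet-O-YAP5SA, a doxycycline-inducible YAP1 in which the serines phosphorylated by LATS kinases are replaced by alanine, and all were grown in RPMI-1640 medium with serum. The Dox group (3 libraries) received doxycycline for 24 hours, at a dose the labels give as 0.2 mg/ml (a unit that could not be checked and is high for an inducible line), and the Ctrl group (3 libraries) received none. The comparison asks what changes in the messenger RNA when active YAP1 is switched on. No library used here comes from doxycycline-treated cells without the transgene, so an effect of the drug cannot be told apart from that of YAP5SA, and the labels do not say whether the line is 1 clone or whether replicates were separate cultures, so p-values measure only the spread between these libraries.

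In this system urokinase and tissue-type activator cut the inactive precursor plasminogen into plasmin, a broad serine protease that dissolves fibrin, degrades matrix proteins and activates other proteases and growth factors. Urokinase is secreted as a precursor and is concentrated at the cell surface by PLAUR, which is held in the membrane by a glycosylphosphatidylinositol anchor. Serpins of the E clade are secreted and trap the active enzymes, while SERPINB2 belongs to a clade that mostly stays inside the cell. In carcinomas the system is known for its part in invasion.

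The assigned reads recovered from the TPM values (reads per gene length, scaled to the same total in each library) came to 24960514 to 29261625 in Dox and 27591673 to 28804843 in Ctrl. These totals are lower limits, since 8723 of the 26819 genes took the smallest length that gives whole reads. YAP1, the gene of the transgene, was at 269 ± 6.92 TPM in Dox and 56.8 ± 3.72 TPM in Ctrl (SD, n = 3), and CYR61, a standard YAP readout, was at 2648 ± 46.2 TPM in Dox and 11.98 ± 0.749 TPM in Ctrl. All 8 luminal prostate markers of the list were expressed, KLK3 (prostate-specific antigen) among them at 1795 ± 17.1 TPM in Dox and 3297 ± 69.6 TPM in Ctrl. The list went both ways: the main limma test called 3 of the 8 higher and 4 lower, KLK3 among the lower, and 1 did not pass. Of all tested genes 35.9% were called higher and 17.8% lower. Of the markers of other cell types, only COL1A1, VWF and CD68 reached the filter for testing. The summed endothelial markers came to 3.97 to 4.65 TPM in Dox and 1.17 to 1.41 TPM in Ctrl, and the summed immune markers to 9.48 to 10.7 TPM in Dox and 19.2 to 21.0 TPM in Ctrl. Of the endothelial markers, VWF was at 3.74 ± 0.226 TPM in Dox and 1.25 ± 0.116 TPM in Ctrl, and CDH5, which had 69 reads in Dox and 1 in Ctrl, at 0.381, 0.567 and 0.458 TPM in Dox 1 to 3 and 0, 0 and 0.0197 TPM in Ctrl 1 to 3. Limma voom on the recovered reads called CDH5 higher (adjusted p = 1.8e-07). Of the immune markers, CD68 was at 9.86 ± 0.508 TPM in Dox and 20.2 ± 0.996 TPM in Ctrl. The part of other cell types in the results below was not tested.

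All 5 genes were at low levels in these cells. None of them was called higher in Dox, where 35.9% of all tested genes were, but only SERPINE2 reached the filter of the main test. PLAU and SERPINB2, with 6 reads each over the 6 libraries, were tested only in a fit without a filter and could hardly be called. The sum of the 5 was 2.61, 3.14 and 2.68 TPM in Dox 1 to 3, against 3.48, 3.47 and 3.17 TPM in Ctrl 1 to 3. The sums do not overlap, but the Dox 2 and Ctrl 3 sums lie close together, and the exact two-sided permutation test gave p = 0.1, the smallest that 3 against 3 libraries allow. Of the 17514 single genes with at least 20 reads, 19.6% had every Dox library below every Ctrl library. SERPINE2 made up 74.2 ± 4.16% of the sum in Dox and 64.9 ± 1.98% in Ctrl, and PLAUR made up 20.4 ± 2.17% in Dox and 30.3 ± 4.89% in Ctrl (SD, n = 3). The order of the levels was SERPINE2, then PLAUR, and then PLAT, PLAU and SERPINB2. In each library SERPINE2 was above PLAUR and PLAUR was above the other three, whose values overlap and cannot be put in order. Set against all listed genes, mean SERPINE2 was above 51.3% of genes in Dox and 53.1% in Ctrl, and mean PLAUR above 40.0% in Dox and 46.4% in Ctrl. PLAT, PLAU and SERPINB2 stood above 19.8%, 15.4% and 15.2% of genes in Dox and above 23.4%, 16.2% and 17.0% in Ctrl.

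**Figure D1:**
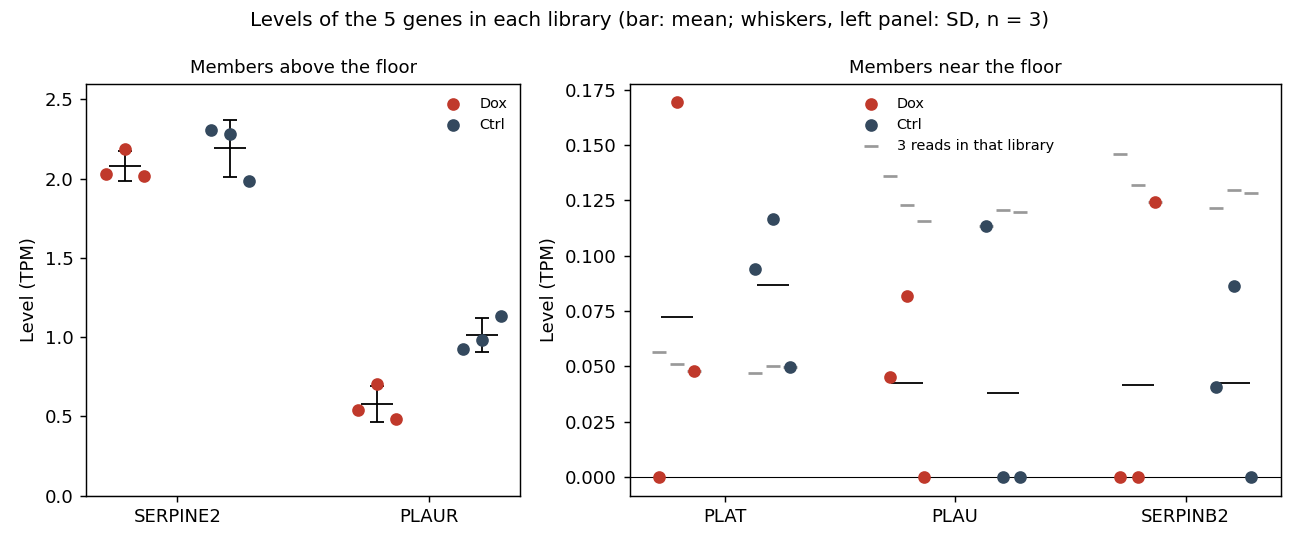
Level in TPM (linear axis) of each of the 5 genes in the 3 Dox and the 3 Ctrl libraries, with the mean as a bar, the SD as whiskers in the left panel, and in the right panel a grey dash for what 3 reads would be worth in that library. SERPINE2 stays near 2 TPM in both groups, the 3 PLAUR values in Dox all lie below the 3 in Ctrl, and most points of the right panel lie at 0 or near the dash.

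PLAU (ENSG00000122861.11), the activator that binds PLAUR, was read 1, 2 and 0 times in Dox 1 to 3 and 3, 0 and 0 times in Ctrl 1 to 3. That corresponds to 0.0453, 0.0819 and 0 TPM in Dox and to 0.113, 0 and 0 TPM in Ctrl. The groups overlap, and 3 of the 6 libraries have no read at all. With 3 reads in each group, the ratio of the read rates was 1.05, Dox over Ctrl, with a 95% exact interval from 0.141 to 7.87 that covers counting error only. A change of several fold in either direction was therefore not detectable at this depth. In GENCODE 29 PLAU is overlapped on the opposite strand by C10orf55, which was not analysed here, and no source used here says whether strand was used in counting.

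PLAT (ENSG00000104368.13), the activator of the fibrinolytic system in blood, was read 0, 10 and 3 times in Dox and 6, 7 and 3 times in Ctrl, or 0, 0.169 and 0.0478 TPM in Dox and 0.0938, 0.116 and 0.0495 TPM in Ctrl. Dox 1 is the lowest library and Dox 2 the highest, so the Ctrl values lie inside the Dox range. The pooled ratio was 0.856 (interval 0.379 to 1.90, counting error only). In limma voom on the recovered reads PLAT did not pass (log2 fold change -0.98 ± 0.71, SE, adjusted p = 0.26). That negative value rests on the empty library, since without Dox replicate 1 it became 0.0835. The gene length behind the PLAT reads is the smallest that gives whole reads, so the true reads could be a common multiple of these.

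Together the activators had 1, 12 and 3 reads in Dox and 9, 7 and 3 reads in Ctrl. PLAU made up 100%, 32.6% and 0% of the summed activator TPM in Dox 1 to 3, against 54.7%, 0% and 0% in Ctrl 1 to 3 (exact two-sided permutation test, p = 0.7). These shares rest on so few reads that they span the whole possible range within Dox, and they say nothing of which activator prevails.

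PLAUR (ENSG00000011422.7) was the member that differed. It was at 0.539, 0.704 and 0.485 TPM in Dox 1 to 3, against 0.926, 0.985 and 1.13 TPM in Ctrl 1 to 3. Every Dox library was below every Ctrl library, and the highest Dox value, in Dox 2, was still under the lowest Ctrl value. The means were 0.576 ± 0.114 TPM in Dox and 1.02 ± 0.108 TPM in Ctrl (SD, n = 3), a 1.76-fold lower level with doxycycline. The values stand on 18, 26 and 19 reads in Dox and 37, 37 and 43 reads in Ctrl, and the pooled ratio of 0.568 had a counting interval of 0.411 to 0.777.

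PLAUR reached 1 TPM in 1 library only, under the 3 libraries that the main filter asks for, so the main limma fit holds no test of it. The planned fit without a filter called it lower (log2 fold change of TPM + 1 of -0.36 ± 0.09, SE, limma adjusted p = 0.032), a scale on which a gene near 1 TPM shows less than its full change. Limma voom on the recovered reads, a fit chosen after the values were seen, gave a log2 fold change of -0.86 ± 0.25 (adjusted p = 0.0052). Leaving out any 1 library kept the call, with log2 fold changes between -1.004 and -0.73 and adjusted p of at most 0.034. The call is to be read against how common such calls are in these data: 9.05% of the 26819 genes were called lower without a filter, 20.1% of the 17514 genes in the voom fit were called lower, and in 19.6% of the same 17514 genes every Dox library was below every Ctrl library. A fall of this kind is thus shared by a large part of the transcriptome. The exact permutation test on the 6 TPM values gave p = 0.1, the smallest possible.

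**Figure D2:**
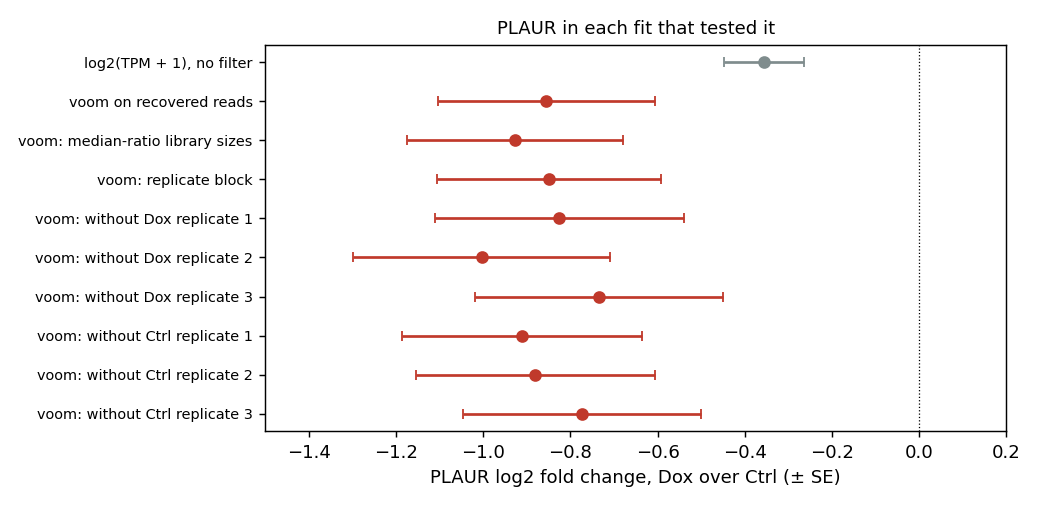
PLAUR log2 fold change, Dox over Ctrl, with its standard error, in each of the fits that tested the gene (grey: log2(TPM + 1) without a filter; red: voom on recovered reads, as a whole, with other library sizes, with a replicate block, and without each library). All estimates are below 0, and those from reads run from -1.004 to -0.73.

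The sequence around the PLAUR start is shown because PLAUR is the member that differed, and that of SERPINB2 because it is the other member whose window holds letters of the AP-1 motif. Each window runs from 250 bases before to 50 bases after the annotated start and comes from RefSeq on GRCh38.p14, with PLAUR at chr19:43670120-43670419 on the minus strand and SERPINB2 at chr18:63887455-63887754 on the plus strand. Capitals mark the AP-1 motif TGANTCA. In SERPINB2 they also mark the core promoter element spelled TATAAA.
PLAUR: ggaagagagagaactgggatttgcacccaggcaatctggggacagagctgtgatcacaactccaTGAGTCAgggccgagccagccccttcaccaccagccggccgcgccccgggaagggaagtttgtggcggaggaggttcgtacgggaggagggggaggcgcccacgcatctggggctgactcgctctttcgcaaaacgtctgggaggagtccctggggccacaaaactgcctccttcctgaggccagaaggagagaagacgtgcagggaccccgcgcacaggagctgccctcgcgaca
SERPINB2: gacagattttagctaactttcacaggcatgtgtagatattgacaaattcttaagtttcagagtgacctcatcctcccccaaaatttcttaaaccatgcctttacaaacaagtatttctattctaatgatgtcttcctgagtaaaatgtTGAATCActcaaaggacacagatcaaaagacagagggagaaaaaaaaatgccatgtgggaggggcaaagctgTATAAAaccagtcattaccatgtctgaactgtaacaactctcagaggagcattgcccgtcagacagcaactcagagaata

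The match in PLAUR begins 186 bases before the start, and the AP-1 match in SERPINB2 begins 102 bases before it. Of the 35116 windows in the table, 7.71% hold TGANTCA on either strand, and 11.5% hold TATAAA. The letters GGAATG, the core that TEAD factors (the DNA-binding partners of YAP1) recognise, are in 14.0% of all windows on either strand and in none of the 6 windows found for 4 of the 5 genes (both PLAU, both SERPINE2, and those of PLAUR and SERPINB2). The 3 motifs did not overlap one another in these windows. A match describes letters in a window and is not evidence of binding, and the lack of one says nothing of sites outside it.

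SERPINE2 (ENSG00000135919.8), a secreted serpin that inhibits thrombin, urokinase and plasmin, was the most abundant member and the only one in the main test. It was at 2.03, 2.19 and 2.02 TPM in Dox 1 to 3, against 2.31, 2.28 and 1.98 TPM in Ctrl 1 to 3. The groups overlap, Ctrl 3 being the lowest of all 6 libraries and Ctrl 1 the highest. The means were 2.08 ± 0.0938 TPM in Dox and 2.19 ± 0.180 TPM in Ctrl (SD, n = 3), on 454 reads in Dox and 505 in Ctrl. The log2 fold change of TPM + 1 was -0.05 ± 0.10 (SE, limma adjusted p = 0.68), with a 95% interval from -0.28 to 0.17. On that scale a gene near 2 TPM shows less than its full change, and limma voom on the recovered reads gave -0.12 ± 0.11 (SE, adjusted p = 0.40). In the main limma fit 53.7% of the 14833 tested genes were called, 35.9% higher and 17.8% lower (5319 and 2640 genes, but 3915 and 4010 with median-ratio scaling), and all tested genes together had a median log2 fold change of 0.10. The counting interval of the pooled ratio ran from 0.833 to 1.08, and a change as large as 1.5-fold lies outside it in either direction. That interval covers counting error only, and replicates differed beyond counting error, so it is too narrow to exclude such a change. The tested genes whose log2(TPM + 1) followed SERPINE2 most closely over the 6 libraries were GSG2 (the histone kinase haspin, Pearson r = 0.98), MIR1909 (0.97) and MRM1 (0.96). None of these 3 passed the test between the groups either, and with 14833 genes and 6 libraries such values are a description only.

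SERPINB2 (ENSG00000197632.4), a clade B serpin that inhibits urokinase and is induced in macrophages and keratinocytes, was read 0, 0 and 3 times in Dox and 1, 2 and 0 times in Ctrl. Its levels were 0, 0 and 0.124 TPM in Dox and 0.0406, 0.0864 and 0 TPM in Ctrl, so the groups overlap and 3 of the 6 libraries are empty. The pooled ratio of 1.05 had the same wide counting interval as that of PLAU, 0.141 to 7.87. In GENCODE 29 the gene overlaps SERPINB10 on the same strand, which averaged 0.0140 TPM in Dox and 0.0284 TPM in Ctrl, and reads between these genes could be split.

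The ratio of PLAUR to SERPINE2 within a library does not depend on how libraries are scaled to each other. It was 0.266, 0.322 and 0.240 in Dox 1 to 3, against 0.401, 0.432 and 0.572 in Ctrl 1 to 3. The Dox values all lie below the Ctrl values (means 0.276 ± 0.0420 in Dox and 0.468 ± 0.0910 in Ctrl, SD, n = 3, exact two-sided permutation test, p = 0.1, the smallest possible). Among single genes with at least 20 reads, 19.6% had every Dox library below every Ctrl library, and no such share was worked out for ratios of genes. The PLAUR to SERPINE2 ratio was chosen after the values were seen.

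**Figure D3:**
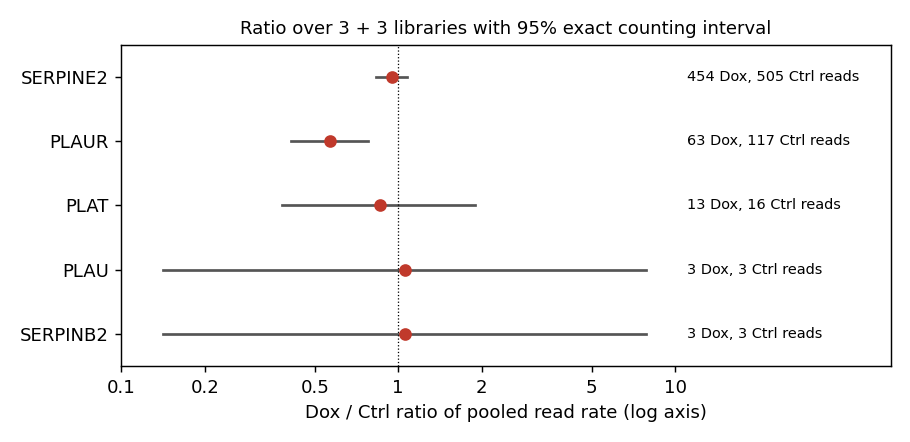
Ratio of the pooled read rate, Dox over Ctrl (log axis), of each of the 5 genes, with its 95% exact interval for counting error and the reads behind it. The interval lies below 1 for PLAUR, is narrow and includes 1 for SERPINE2, and spans 0.141 to 7.87 for PLAU and SERPINB2.

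Many other genes in and around the plasminogen system were more abundant than these 5 and differed between the groups. Of 86 genes in 9 lists, 44 were tested, of which 19 rose, 15 fell and 10 did not pass (77.3% called, against 53.7% of all tested genes), with a median log2 fold change of 0.02, against 0.10 for all tested genes. The lists also hold LY6/uPAR domain genes, other clade B serpins and coagulation genes, so this share is not that of the plasminogen system alone. The lists were chosen with earlier results of these data known, so their shares, here and below, are a description only. The split depends on scaling, with 17 higher and 20 lower when libraries were scaled by median ratios, and 17 higher and 21 lower under quantile normalization. Median-ratio scaling moved the median of all tested genes by -0.10 and quantile normalization by -0.13 on the log2 scale. Each gene named below as higher or lower in the main test kept its direction and its call under both, except ITGA5.

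The binders that hold plasminogen on cells were present, but 1 partner of a known pair was nearly missing. S100A10, which forms with ANXA2 a tetramer that binds plasminogen, was at 360.1, 339.5 and 352 TPM in Dox and at 100.2, 94.2 and 95.7 TPM in Ctrl. It was 3.63-fold higher in Dox (log2 fold change 1.85 ± 0.04, SE, limma adjusted p = 3.5e-08). Every Dox library was above every Ctrl library, as was so for 40.8% of the 14833 tested genes. ANXA2 itself had 14 reads in Dox and 35 in Ctrl, at 0.0454, 0.123 and 0.0258 TPM in Dox and 0.139, 0.175 and 0.147 TPM in Ctrl. It did not enter the main test and is named after its values were seen, and voom on the recovered reads called it lower (log2 fold change -1.44, adjusted p = 0.014). ANXA2 has processed pseudogenes, and no source used here says how shared reads were counted. The plasminogen receptor PLGRKT was at 89.7 ± 0.945 TPM in Dox and 86.3 ± 3.72 TPM in Ctrl and did not pass (adjusted p = 0.26). Of the 4 tested binders 2 rose (S100A10 and KRT8) and 1 fell (ENO1), with a list median of 0.18. Among all tested genes 35.9% were called higher and 17.8% lower.

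Of the 8 proteases able to activate the urokinase precursor 5 fell, 1 rose and 2 did not pass, where 17.8% of all tested genes were called lower. Their median log2 fold change was -0.28, against 0.10 for all tested genes. KLK2, a prostate kallikrein under androgen control, was at 51.3 ± 1.19 TPM in Dox and 133 ± 3.67 TPM in Ctrl, F12 (coagulation factor XII) at 17.7 ± 2.58 TPM in Dox and 32.0 ± 1.93 TPM in Ctrl, and HPN (hepsin, a membrane serine protease) at 46.8 ± 3.27 TPM in Dox and 82.1 ± 1.92 TPM in Ctrl (SD, n = 3). ST14 (matriptase), the other membrane protease of the list, was at 212 ± 16.3 TPM in Dox and 215 ± 8.59 TPM in Ctrl and did not pass (limma adjusted p = 0.79).

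All 6 tested partners of PLAUR at the membrane rose (5 of 6 after either rescaling, when ITGA5 no longer passed), where 35.9% of all tested genes were called higher. Their median log2 fold change was 0.72, against 0.10 for all tested genes. VTN, the matrix protein vitronectin that binds PLAUR directly, was at 4.97, 6.37 and 6.91 TPM in Dox and at 0.577, 0.576 and 0.837 TPM in Ctrl, 9.17-fold higher. The integrin ITGB5 was at 94.3 ± 4.58 TPM in Dox and 45.6 ± 2.63 TPM in Ctrl, and ITGA3 at 6.94 ± 0.212 TPM in Dox and 2.78 ± 0.280 TPM in Ctrl. Of the other LY6/uPAR domain genes, whose products share the fold of PLAUR, 7 were tested, and 4 rose and 1 fell (3 and 3 with median-ratio scaling, 4 and 3 with quantile normalization). CD59, an inhibitor of complement, was 1.94-fold higher in Dox, LYPD6 2.27-fold and LYPD6B 2.04-fold, while LYPD3 was 1.43-fold lower.

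Of the inhibitors outside the 5 genes, SERPINI1 (neuroserpin, an inhibitor of tissue-type activator) was expressed and fell, with 16.3 ± 0.555 TPM in Dox and 23.8 ± 0.0571 TPM in Ctrl (log2 fold change -0.52 ± 0.05, limma adjusted p = 6.2e-05). Its level per length was above that of SERPINE2 in all 6 libraries. Among clade B serpins related to SERPINB2, SERPINB6 fell to 110 ± 4.67 TPM in Dox, against 125 ± 0.173 TPM in Ctrl, and SERPINB5 (maspin) did not pass (limma adjusted p = 0.28, and 0.038 under quantile normalization). SERPINB1 was read 16 times in Dox and never in Ctrl.

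The list of endocytic receptors that clear enzyme-serpin complexes also holds LRPAP1, a chaperone of these receptors. The list was divided, with 2 of 6 tested genes higher and 2 lower (2 and 4 with median-ratio scaling, 1 and 4 with quantile normalization). LRPAP1 did not pass in the main test and was among the lower genes after either rescaling. SORL1, a sorting receptor, was at 8.31 ± 0.204 TPM in Dox and 2.58 ± 0.242 TPM in Ctrl. Of the matrix proteases, their inhibitors and plasmin substrates, 5 of 16 were tested, and 2 rose and 1 fell (2 and 2 with median-ratio scaling or quantile normalization). Beside these counts and the coagulation counts below stand 35.9% of all tested genes called higher and 17.8% called lower. TIMP2, a metalloprotease inhibitor, was 2.33-fold higher in Dox, LTBP1, which tethers latent TGF-beta to matrix, 2.99-fold higher, and TGFB1 2.06-fold lower. Of the 5 tested coagulation genes 2 rose and 3 fell, among them PROCR, the endothelial protein C receptor (15.3 ± 0.753 TPM in Dox and 25.6 ± 1.80 TPM in Ctrl).

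**Figure D4:**
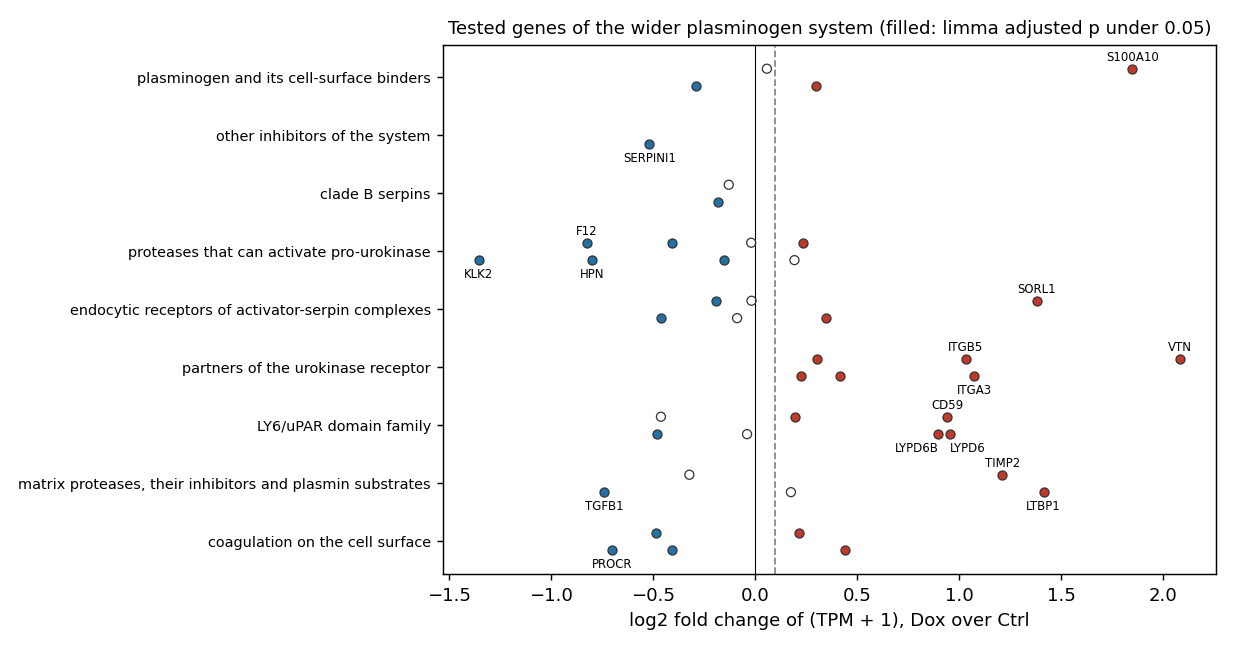
Log2 fold change of TPM + 1, Dox over Ctrl, of each tested gene in the 9 lists (filled: limma adjusted p under 0.05, red higher and blue lower; open: not passed; dashed line: median of all tested genes, 0.10). S100A10 and VTN lie farthest to the right and KLK2 farthest to the left.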

How the data were processed

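Messenger RNA of 6 libraries was sequenced. Per the submitters' processing notes, FastQC 0.11.2, STAR 2.5.3a, featureCounts, edgeR and hg19 were used. The authors deposited 1 TPM value per gene and library. The annotation release and strand setting are not stated in the labels or notes. Groups and replicate numbers come from the sample titles. The main test was limma 3.58.1 (R 4.3.3) with a mean-variance trend, run on log2(TPM + 1) for the 14833 genes that reached 1 TPM in 3 or more libraries. It is two-sided, with p adjusted over all tested genes by Benjamini-Hochberg and a threshold of 0.05. No replicate block was used. Fold values without "log2" are ratios of mean TPM.

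Whole reads were recovered from TPM, since a value is reads divided by gene length times a constant of the library. All 26819 genes met the criterion of whole reads within 0.01 in all libraries, 18096 of them with the GENCODE 29 exon length. The other 8723, PLAT among them, took the smallest whole length that worked, so their reads could be too low by a common factor. Values that round to 0 also met the criterion, so some genes with TPM above 0 were given 0 reads. Such genes are missing from the voom fits and their shares. Limma voom on these reads (at least 20 over the 6 libraries) was added after the data were seen. Counting intervals are exact (Clopper-Pearson). Both fits were also run on simulated data, in which only genes that reached the main filter were changed. That run does not cover changes in genes as low as PLAUR, PLAT, PLAU or SERPINB2.

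The members and lists were chosen with earlier results of these data known. Named genes are the members, up to 4 called genes per list (mean of at least 1 TPM, absolute log2 fold change of at least 0.5), and the 3 genes most correlated with each tested member. Others (ANXA2, CDH5, VWF, CD68, PLGRKT, ST14, KRT8, ENO1, ITGA5, LYPD3, LRPAP1, SERPINB1, SERPINB5 and SERPINB6) are named after their values were seen. Alternatives were a pseudocount of 0.1, no filter, a mean of at least 5 TPM, median-ratio and quantile scaling, a fit with no trend, a block for replicate number, and the omission of 1 library at a time. Replicates were no copies of each other: their reads differed beyond counting error, at a chi-square of 2.38 to 4.49 per gene between 2 libraries of a group.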

Additional observations from a re-analysis of the deposited data

How the results depend on the processing

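Depth sets the limits here: 3 of the 5 genes have 6 to 29 reads over all libraries, and a 1-read change moves their levels visibly. SERPINE2 did not pass under any alternative that tested it, with log2 fold changes between -0.20 (quantile normalization) and -0.02, and with 1 library left out between -0.10 and -0.02 (voom -0.18 to -0.07); with at least 5 TPM required it was not tested. With a pseudocount of 0.1 the untested values were 0.10 for PLAU, -0.73 for PLAUR and -0.22 for PLAT. PLAUR was called without a filter (-0.36, adjusted p = 0.032), with voom (-0.86, adjusted p = 0.0052), with voom and median-ratio library sizes (-0.93) and with voom and a replicate block (-0.85), and with 1 library left out voom gave -1.004 to -0.73. PLAT did not pass in any voom fit (-0.98, -1.06 with median-ratio library sizes, -0.39 with a replicate block, and -1.96 to 0.0835 with 1 library left out, the lowest without Dox replicate 2 at adjusted p = 0.053 and the highest without Dox replicate 1). Without a test, leaving out 1 library gave -0.02 to 0.06 for PLAU, -0.06 to 0.03 for SERPINB2, -0.41 to -0.31 for PLAUR and -0.09 to 0.03 for PLAT on the log2(TPM + 1) scale. The difference in the PLAU share of activator TPM was 25.96 percentage points, and -1.95 to 48.1 points with 1 library left out. Its log ratio could not be computed, since both genes have libraries at 0.

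Over all genes 5319 were called higher and 2640 lower. Quantile normalization gave 3536 higher and 4348 lower, median-ratio scaling 3915 and 4010, and voom with median-ratio library sizes 4602 and 4495. Leaving out 1 library gave 4445 to 5278 higher and 2204 to 2417 lower (voom 4952 to 5457 and 3098 to 3349), and for the 9 lists 18 to 19 higher and 14 to 15 lower (voom 22 to 23 and 16 to 18). The groups share replicate numbers, but the deviations of same-numbered libraries correlated at -0.01, 0.06 and 0.00, so the numbers are not taken to pair them. The replicate block gave -0.05 for SERPINE2 (adjusted p = 0.70) and changed no call of a member.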
